A study of Homo sapiens with 6 samples.

Results

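Regions of open chromatin that were called in every control library and in no chimera library are described here, for the human lung carcinoma cell line H1155. They were chosen by the deposited peak lists themselves: peaks of 6 ATAC-seq libraries on chromosomes 1 to 22 and X that shared at least 1 bp were merged, and a region was kept if each of the 3 control lists and none of the 3 chimera lists had a peak in it. The rule gave 1197 of 149765 merged regions, or 0.799%. The mirror rule, a peak in every chimera list and in no control list, gave 930 regions, and 56679 regions had a peak in all 6 lists. The membership counts, and the strength of the control peaks, are what selected the regions and are given as a description with no test.

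The control group is H1155 with the genotype control, and the other group is H1155 with the genotype chimera, 3 biological replicates each, prepared by Omni-ATAC. H1155 was established from a large cell lung carcinoma. The labels do not say what the chimera is, what the control cells carry, how or for how long the chimera was expressed, or whether either group is 1 clone. The titles of the chimera libraries use the letters TA.

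ATAC-seq reads where a transposase can insert adapters into DNA, so a peak marks a stretch not covered by a nucleosome. Open stretches lie over gene start sites, over enhancers inside and between genes, and over insulators; enhancers differ more between cell states than start sites do. A list of peaks says where the signal passed a threshold over the local background, so a missing peak is signal below a threshold and not closed chromatin.

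The peak lists held 85730 to 109321 peaks per library on the chromosomes used, fewest in control replicate 2 and most in control replicate 3. The genome-wide background pileup recovered from the deposited values was 2.53, 2.94 and 3.05 in control replicates 1, 2 and 3, and 3.21, 2.74 and 3.77 in chimera replicates 1, 2 and 3. These ranges overlap. No total read count was used here. The submitters' processing notes name GRCh38, but the positions fit hg19: 0 peaks ran past an hg19 chromosome end and 4857 peaks on 14 chromosomes ran past a GRCh38 end. Of 211 genes, 129 (61.1%) had a region of all 6 libraries within 500 bp of the hg19 start site, against 19 (9.0%) at the start site of the GRCh38.p14 table. Positions are therefore given as deposited and read as hg19. No hg19 annotation was at hand, so gene extents and chromosome ends were written down from general knowledge. The place of a region relative to a gene is therefore given in words, or as within or beyond a set distance. The counts of regions near listed genes, and of start sites with a region, rest on these written extents. A gene named beside a region is not always the nearest one. Other genes can lie between, and the region can lie inside another gene. For the listed genes, upstream of or past a gene means within 100 kb of it.

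Among the 20 regions of highest rank, 2 lie at a gene start or just downstream of it. The genes are SESN3, a sestrin that restrains mTORC1 signalling under stress, and PMF1, a subunit of the kinetochore complex that joins chromosomes to the spindle. Their RefSeq promoter windows, 250 bases before to 50 after the start site, are shown because the chromatin data bear on these sequences. They were matched by gene symbol in the GRCh38.p14 table, which is another build than that of the peaks. The capitals mark matches to 2 short motifs in each window.
SESN3 promoter, GRCh38.p14 chr11:95232426-95232725, minus strand: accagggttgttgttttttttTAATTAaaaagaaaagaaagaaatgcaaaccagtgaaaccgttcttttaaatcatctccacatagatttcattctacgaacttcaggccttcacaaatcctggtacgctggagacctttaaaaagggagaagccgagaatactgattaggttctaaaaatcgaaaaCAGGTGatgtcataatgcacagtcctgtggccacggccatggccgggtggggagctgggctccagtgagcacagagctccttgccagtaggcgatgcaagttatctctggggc
PMF1 promoter, GRCh38.p14 chr1:156212757-156213056, plus strand: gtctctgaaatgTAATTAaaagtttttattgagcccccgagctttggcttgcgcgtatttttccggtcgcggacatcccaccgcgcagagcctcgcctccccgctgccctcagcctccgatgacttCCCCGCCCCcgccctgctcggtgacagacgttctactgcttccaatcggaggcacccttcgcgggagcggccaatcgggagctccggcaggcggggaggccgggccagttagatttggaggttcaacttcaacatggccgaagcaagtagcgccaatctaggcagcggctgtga
The SESN3 window had a GC content of 45% and 8 CpG, against medians of 58.7% and 14 over 35116 promoters of the table. The PMF1 window had 60.7% and 26 CpG. In the SESN3 window the capitals are the homeobox motif TAATTA at position -229 from the start site and the ZEB and SNAI motif CAGGTG at position -63. In the PMF1 window they are TAATTA at position -238 and, on the other strand, the SP and KLF motif GGGGCGGGG at position -124. Both strands were searched for 20 motifs, and these do not overlap. TAATTA was found in 4.84%, CAGGTG in 20.6% and GGGGCGGGG in 15.7% of all promoters, so a match is a description of the letters and no site. The control-only region at SESN3 overlapped the window as placed on hg19, while that at PMF1 began just downstream of it.

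The control-only regions were weaker than regions open in all libraries. Fold here is the authors' deposited value, the summit pileup plus 1 over the library's own local background plus 1. The median fold of the members was 4.31, 3.98 and 4.44 in control replicates 1, 2 and 3, against 7.80, 6.31 and 8.22 for regions of all 6 libraries and 3.96, 3.62 and 3.82 for regions called only in that library. All 3 control libraries thus placed the members between these 2 sets. The median −log10 q was 7.43, 6.35 and 8.81, at percentiles 24.7, 21.8 and 29.3 of the library's own list. The chimera-only regions had median folds of 4.14, 4.28 and 3.98 in chimera replicates 1, 2 and 3, close to those of the control-only regions in control libraries.

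Within a region the 3 control peaks had similar folds. The ratio of the highest to the lowest control fold had a median of 1.31 and a 90th percentile of 1.68, and it passed 2 in 24 regions (2.01%). Control replicate 2, the list with the fewest peaks, held the weakest peak by −log10 q in 651 regions (54.4%), replicate 1 in 347 (29.0%) and replicate 3 in 199 (16.6%). Which regions qualified therefore leaned on that library: without control replicate 2 the count was 4244.

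Just inside the rule, the 10 weakest members had a lowest control −log10 q of 1.72 to 2.54. Just outside it, 2556 regions had a peak in all 3 control libraries and in 1 chimera library, which was replicate 1 in 693, replicate 2 in 934 and replicate 3 in 929. The median −log10 q of that single chimera peak was 6.81. A further 4572 regions had a peak in 2 control libraries and in no chimera library, and the control library without a peak was replicate 2 in 3009 of them.

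Many control-only regions lay close to a peak of at least 1 of the 3 chimera libraries. A chimera peak lay within 1 kb of 363 regions (30.3%, 95% exact Clopper-Pearson interval 27.7 to 33.0, counting error only), 1 to 10 kb away from 538 (44.9%) and farther from 296 (24.7%). The 3 classes differed in fold. Median folds in control replicates 1, 2 and 3 were 3.79, 3.52 and 3.8 within 1 kb, 4.34, 3.93 and 4.45 at 1 to 10 kb, and 5.09, 4.57 and 5.19 beyond 10 kb. The summit pileup ran the other way, from 27, 24 and 33 within 1 kb to 18, 17 and 21 beyond 10 kb. The local background fell with it, from 6.18, 6.02 and 7.48 to 2.53, 2.94 and 3.05, the last being the genome-wide level. The higher fold of remote regions thus came with fewer reads at the summit. Among chimera-only regions 22.2% had a control peak within 1 kb, and 35.1% had none within 10 kb.

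The 73 regions (6.10%) whose lowest control fold was at least 5 had a median gap of 12.4 kb to the nearest chimera peak, and 4 of them (5.48%) had one within 1 kb. For the other 1124 the median gap was 2.83 kb and the share within 1 kb was 31.9%. The fold is a ratio to the local background, which fell with distance as above, so fold and gap are not independent measures. In all, 635 control-only regions (53.0%, interval 50.2 to 55.9) lay within 10 kb of a region of all 6 libraries. The same held for 409 chimera-only regions (44.0%) and 4533 regions (48.9%) called in exactly 3 libraries of both groups. The interval is counting error only and takes regions as independent, and the shares of the 3 sets were not tested against each other. The median width was 354 bp (quartiles 295 to 467), 384.5 bp and 332 bp in these 3 sets.

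**Figure D1:**
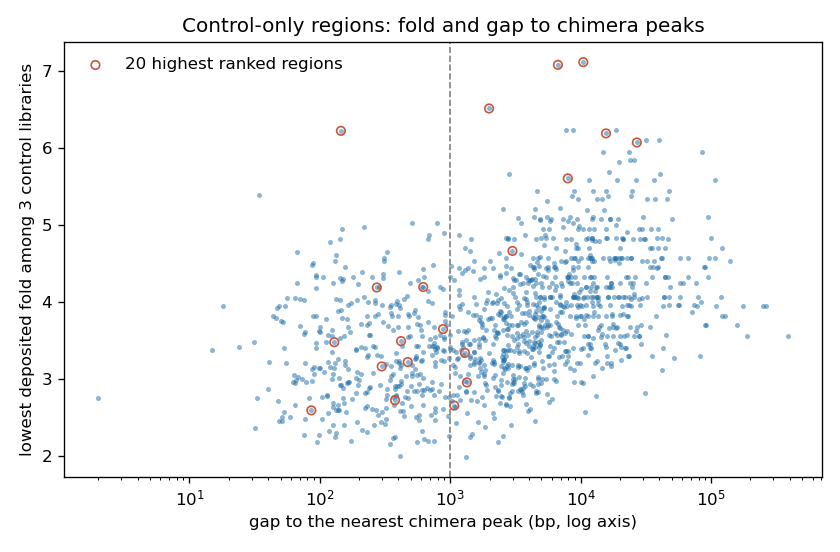
Each point is 1 of the 1197 control-only regions; the horizontal log axis is the gap in bp to the nearest chimera peak and the vertical axis is the lowest deposited fold among the 3 control libraries. Points right of the dashed line at 1 kb include most of the 73 regions with a lowest fold of at least 5, and open circles mark the 20 regions of highest rank.

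Rank was set by the lowest −log10 q among the control libraries, so the 20 highest are those most clearly called in every control. Their genes fall in several roles, and both low folds close to a shared peak and high folds far from one are among them.

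Both members at or just downstream of a start site had low folds and a shared region close by. At PMF1, chr1:156182944-156183235, the folds were 3.18, 2.59 and 2.80 in control replicates 1, 2 and 3. A region of all 6 libraries lay 47 bp upstream, over the start site, with folds of 3.74, 3.25 and 3.63 in controls and 2.65, 2.76 and 2.52 in chimera replicates 1, 2 and 3. Every control fold at that neighbour was above every chimera fold, a pattern seen in 10.1% of the regions of all 6 libraries. These folds were not scaled between libraries. At SESN3, chr11:94965335-94965739, the folds were 3.53, 3.70 and 3.22, and a strong region of all 6 libraries lay 375 bp away, with 12.1, 12 and 13.1 in controls and 14.4, 12.7 and 13.6 in chimera libraries. There the 2 groups overlapped.

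**Figure D2:**
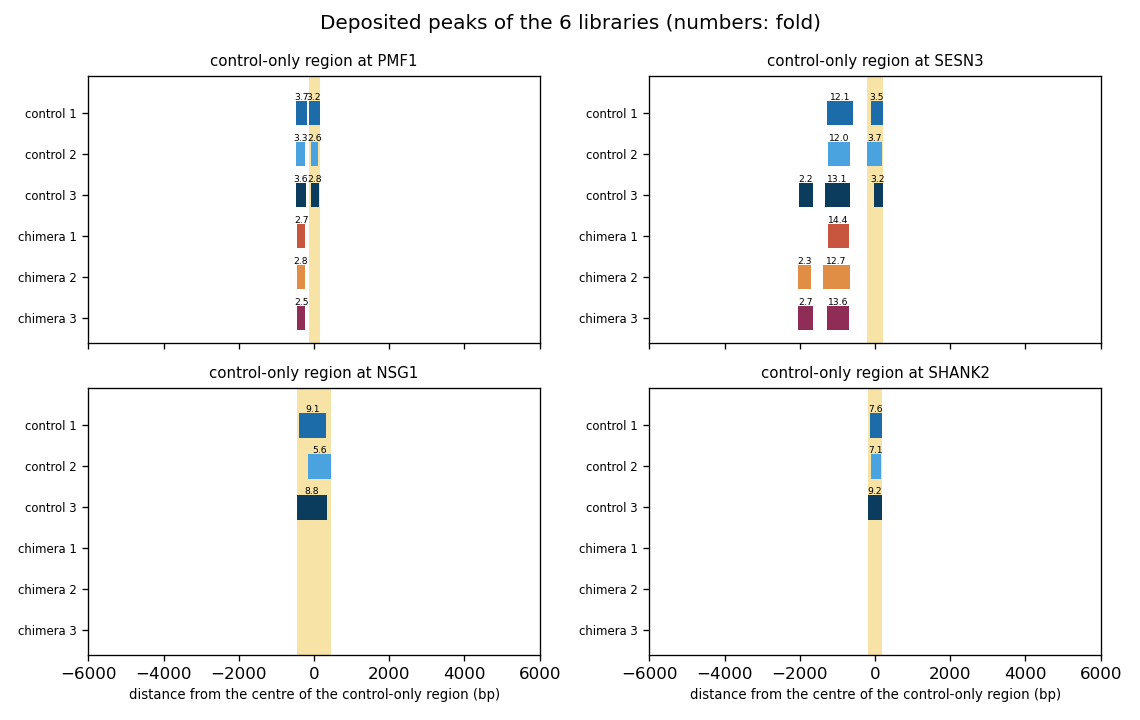
Deposited peaks of the 6 libraries, 1 row each around the centre of the control-only regions at PMF1, SESN3, NSG1 and SHANK2; the horizontal axis is the distance from that centre in bp, the shaded band is the control-only region and each number is the fold of a peak. Chimera peaks flank the band at PMF1 and SESN3, and no chimera peak falls in the window at NSG1 and SHANK2.

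Inside NSG1, which sorts receptors in neuronal endosomes, the region chr4:4408280-4409205 had folds of 9.07, 5.6 and 8.79 in control replicates 1, 2 and 3, and the nearest chimera peak was 7956 bp away. By SHANK2, a scaffold of the postsynaptic density, chr11:70951920-70952287 had 7.64, 7.11 and 9.15 and was 10460 bp from a chimera peak; it lay upstream of the written extent, and annotations differ in where this gene begins. Inside PCDH9, a protocadherin of cell adhesion, chr13:67568179-67568861 had 7.08, 8.63 and 7.41. Control replicate 2 was the lowest library at NSG1 and SHANK2 and the highest at PCDH9.

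Inside GAK, a kinase that uncoats clathrin vesicles, chr4:844172-844874 had folds of 6.19, 7.55 and 8.69. The region between NMU, a neuropeptide gene, and EXOC1, a subunit of the exocyst that tethers secretory vesicles, had 4.19, 4.4 and 4.66. GAK was 15621 bp from a chimera peak, and the region before EXOC1 was 620 bp from one.

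Inside HOXA10, a homeobox factor of positional identity, chr7:27212559-27212824 had folds of 2.65, 2.83 and 2.77. Past the 3′ end of FOXO6, a forkhead factor, they were 3.72, 3.86 and 3.65. Past HM13, before ID1, an inhibitor of basic helix-loop-helix factors, they were 2.95, 3.02 and 2.96. At all 3 the control libraries were nearly level. On chromosome 2, at chr2:66398635-66399151, the folds were 7.92, 6.07 and 6.92, with the nearest chimera peak 26935 bp away. Of the genes written down, MEIS1, a homeobox cofactor of HOX proteins, was the next downstream, but its start lay more than 100 kb away.

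RNA-related genes held 2 of the 20. Upstream of MALAT1, a nuclear long noncoding RNA, the region had folds of 2.89, 3.05 and 2.72 and lay 377 bp from a chimera peak. Inside RBFOX2, a splicing factor, the folds were 4.0, 3.48 and 3.65 at 129 bp from one, and a second control-only region inside that gene had 4.65, 4.09 and 3.83. Further ranked regions lay upstream of PRRC2B (4.25, 4.38 and 4.19), between GALNT9 and FBRSL1 (4.34, 3.49 and 3.93), past the 3′ end of TRIM27 (3.68, 4.15 and 3.34), between ARHGEF10 and KBTBD11 (3.45, 3.18 and 3.16), more than 100 kb past the 3′ end of ZFAT on chromosome 8 (6.51, 7.11 and 8.88) and in an intergenic stretch of chromosome 12 (6.74, 6.22 and 7.86). The last was 145 bp from a chimera peak but 435849 bp from any region of all 6 libraries.

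**Figure D3:**
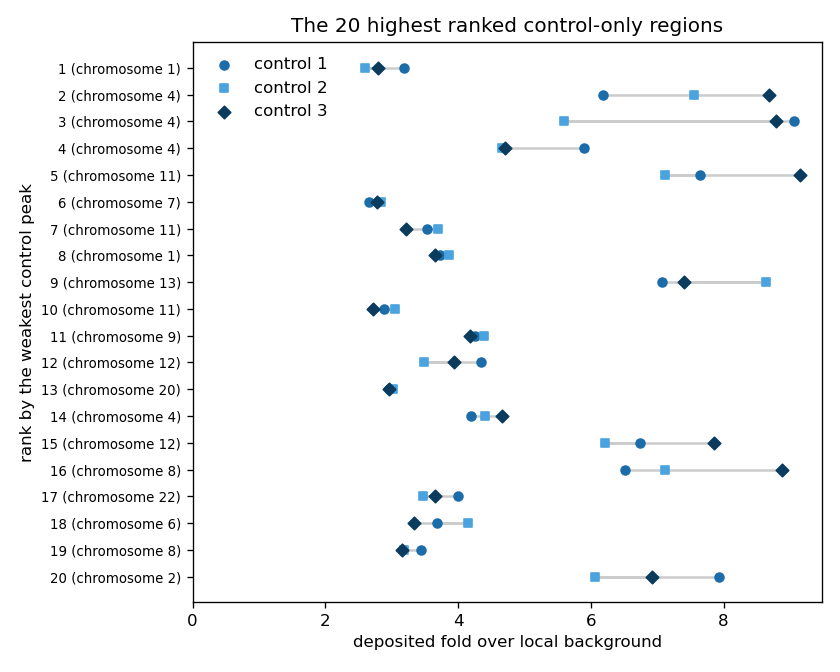
Deposited fold over the local background (horizontal axis, from 0) of the 20 control-only regions of highest rank, 1 row each with its chromosome; the symbols are the 3 control libraries and the grey line spans them. The folds run from 2.59 in the region of rank 1 to 9.15 in that of rank 5.

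Most members stood alone. With a limit of 100 kb between neighbours, 1019 regions had no other member near, 78 pairs formed, and there were 6 groups of 3 and 1 of 4. The group of 4 ran over 73.6 kb on chromosome 14, from inside KIF26A, an atypical kinesin, to beyond its 3′ end. Its folds in control replicates 1, 2 and 3 were 6.02, 3.41 and 3.8 in the gene, then 3.8, 3.00 and 3.86, then 3.00, 3.60 and 3.48, and 5.43, 4.51 and 7.14 in the last. The only region of all 6 libraries in that stretch of 11 regions had folds of 10.6, 6.85 and 9.43 in controls and 4.49, 6.73 and 6.12 in chimera libraries, so there too every control fold was above every chimera fold.

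The groups of 3 lay at or beyond genes of varied function. In HIVEP3, a zinc finger factor that binds κB-like sites, 3 members spanned 31.9 kb, and another member farther along the gene had the highest folds there, at 7.08, 5.19 and 8.40. In CELF4, an RNA-binding protein of neurons, 3 members spanned 94.3 kb, and the one nearest the start had 4.52, 5.04 and 6.4. Further groups were inside and upstream of C7orf50, and from MGAT3, a glycosyltransferase, to CACNA1I, a T-type calcium channel. Another, on chromosome 9, lay more than 100 kb beyond the 3′ end of OLFM1. Between MGAT3 and CACNA1I, over 185.6 kb and 43 merged regions, 1 region was chimera-only.

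By chromosome the share of merged regions that were control-only ran from 0.501% on X and 0.521% on chromosome 21 (27 and 9 regions) to 0.979% on chromosome 18 and 1.07% on chromosome 20 (31 and 47 regions). Chromosomes with few regions lay at both ends.

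**Figure D4:**
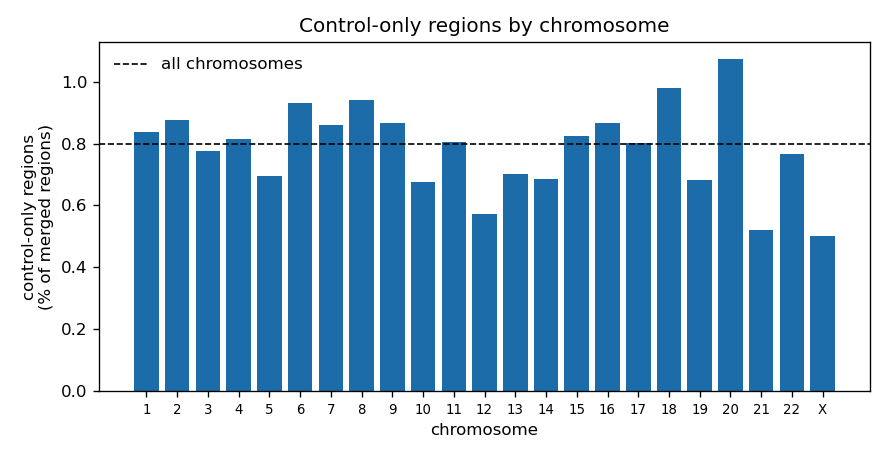
Control-only regions as a percentage of the merged regions of each chromosome; the bars start at 0 and the dashed line is the 0.799% of all chromosomes. Chromosome 20 has the tallest bar and X and 21 the shortest.

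Members near genes of lung cancer states, adhesion and development were counted next. Within 100 kb of 153 genes in these lists, 33 of 2851 merged regions (1.16%) were control-only and 11 were chimera-only, beside 0.799% control-only over all regions; no test was made of such shares. As a check of the cell type, the start site of 9 of 13 neuroendocrine genes had a region of all 6 libraries. The same held for 12 of 18 YAP and TEAD targets, 10 of 17 epithelial adhesion genes, 4 of 6 mesenchymal genes, 3 of 7 non-neuroendocrine lung cancer markers, 2 of 7 lung epithelium markers, 1 of 8 lymphoid, fibroblast and endothelial markers and 0 of 3 tuft-like markers. Open start sites were thus not particular to the neuroendocrine genes.

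Of the neuroendocrine markers, 2 had control-only regions within 100 kb, 3 of 284 regions in all (1.06%), and no chimera-only region. NEUROD1 is the neurogenic factor that defines one subtype of neuroendocrine lung cancer. Within 100 kb past its 3′ end, the folds were 5.40, 5.5 and 4.44 at one member and 3.27, 3.22 and 4.49 at the other. Upstream of CHGB, a granin of secretory granules, they were 5.26, 3.95 and 4.95. Control replicate 2 was not the lowest library at the first of these. Inside POU2F3, the tuft cell factor, 1 member had 4.61, 4.29 and 4.53.

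The YAP and TEAD targets, genes that report Hippo pathway output, had 7 control-only and 3 chimera-only regions of 475 (1.47% control-only). VGLL4, which competes with YAP for TEAD, had 1 on each side within 100 kb. The folds were 4.57, 5.10 and 6.10 past its 3′ end and 5.94, 5.84 and 5.68 upstream. Inside AXL, a receptor tyrosine kinase, the folds were 5.73, 4.0 and 5.68, and inside AMOTL1, a YAP-binding junction protein, 3.92, 3.25 and 3.48. Inside NUAK2, a kinase induced by YAP, they were 3.63, 2.84 and 3.84. Upstream of CCN1, a secreted matrix protein, they were 5.77, 4.06 and 4.45, and upstream of PTPN14, a phosphatase that retains YAP, 3.68, 3.81 and 4.45. The AMOTL1 member lay 0.138 kb from a chimera peak and the AXL member 12.2 kb from one.

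Of 322 regions near epithelial adhesion genes 3 were control-only (0.932%): inside CLDN7, a claudin of tight junctions (3.22, 3.38 and 3.37), past the 3′ end of TJP1, a tight junction scaffold (3.65, 2.69 and 3.18), and near both KRT8 and KRT18, a keratin pair (5.36, 3.95 and 6.94). Of 100 regions near mesenchymal genes 2 were (2%), both at ZEB2, a repressor of E-cadherin, with 3.88, 4.51 and 3.74 inside the gene and 3.68, 4.32 and 3.95 past its 3′ end. The ZEB2 folds were highest in control replicate 2.

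Developmental genes had members of both low and high fold. Of 192 regions at the HOX clusters 4 were control-only (2.08%) and 2 chimera-only: inside HOXA10 as above, between HOXA6 and HOXA7 (3.43, 3.33 and 2.64), inside HOXB7 (3.16, 2.52 and 2.80) and between HOXC9 and HOXC8 (2.35, 2.80 and 2.32), with none at the HOXD genes. These 4 were 0.603 to 1.088 kb from a chimera peak. Of 278 regions near axon guidance genes 4 were control-only (1.44%) and 0 chimera-only. Inside ROBO2, a receptor for SLIT repellents, the folds were 9.06, 4.83 and 3.95, with control replicate 1 far above the others. Inside ROBO1, its paralogue, they were 3.30, 3.59 and 4.4. Inside SEMA3A, a secreted repellent, 1 member had 4.86, 5.97 and 9.11 and the other 3.55, 2.81 and 4.26.

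The other lists held 0 to 3 members each. Notch pathway genes had 2 of 328 regions (0.610%), past the 3′ ends of HES5 and HEY1, both repressors downstream of Notch, with 4.17, 3.74 and 4.25 at HEY1. AP-1 genes had 2 of 179 (1.12%), upstream of JUN (4.35, 3.71 and 3.74) and FOSL1 (2.97, 3.46 and 4.29), and integrins 1 of 167 (0.599%), inside ITGB1 (3.68, 4.57 and 4.45). Lymphoid, fibroblast and endothelial markers had 3 of 163 (1.84%), by CD3E, COL1A2 and CDH5, and non-neuroendocrine lung cancer markers 2 of 115 (1.74%), in AXL and past CD44. There were 0 of 157 near lung epithelium markers and 0 of 70 near MYC, MYCN and MYCL.

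Regions of all 6 libraries within 10 kb of a member, 1098 in all, were chosen by their peak calls and position. A call is itself a threshold on signal over the local background, so the choice is not free of fold or pileup. A neighbour whose peaks reached a member would have been merged with it, so peak extent is tied to the rule. The folds of these neighbours are not independent of the rule either. The local background is taken from surrounding reads, and each neighbour lies near a peak that was called in control libraries only. The fold contrast is therefore a description with no test. For each library the median log2 fold over them was taken relative to that over all regions of all 6 libraries. It was -0.28, -0.25 and -0.31 in control replicates 1, 2 and 3 (mean -0.28 ± 0.027 SD, n = 3) and -0.20, -0.24 and -0.21 in chimera replicates 1, 2 and 3 (mean -0.22 ± 0.021 SD, n = 3), a difference of 0.062 for chimera minus control. Of these neighbours 98 (8.93%) had every chimera fold below every control fold, beside 10.1% of all regions of all 6 libraries. Another 51 (4.64%) had every chimera fold above, beside 2.63%. These shares use deposited folds that were not scaled between libraries.

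The parts of the fold moved differently. The same contrast was -0.094 for local background, with means of 0.59 ± 0.055 in controls and 0.50 ± 0.013 in chimera libraries (SD, n = 3), and every chimera library lay below every control library. For summit pileup, which does not use the local background, it was -0.0025 (two-sided exact permutation p = 0.8), with means of 0.22 ± 0.0094 in controls and 0.22 ± 0.021 in chimera libraries (SD, n = 3). These 2 measures were added after the data were seen. The neighbours had to be called in all 6 libraries and lie near a member, so their pileup is tied to the choice too. No conclusion is drawn from its p-values.

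Within 2 kb of a member, with 296 neighbours, the contrast was 0.11 for fold, -0.092 for local background and 0.042 for summit pileup (exact permutation p = 0.1 for the pileup). Within 50 kb, with 4526 neighbours, it was 0.022, -0.039 and -0.029 (exact permutation p = 0.1 for the pileup). A p of 0.1 is the smallest that 3 libraries against 3 allow, so none of the 3 distances could pass 0.05, and the sign of the pileup contrast changed with the distance. Around the chimera-only regions, with 649 neighbours within 10 kb, the fold contrast was 0.0017.

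**Figure D5:**
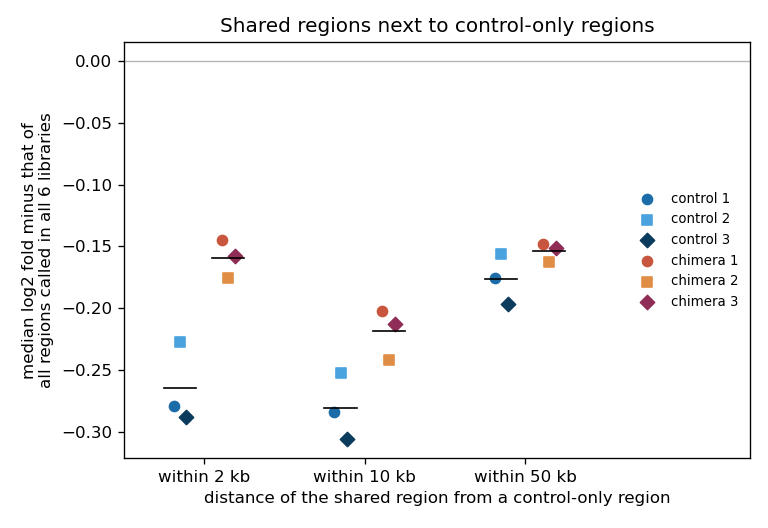
Median log2 fold of regions of all 6 libraries within 2, 10 and 50 kb of a control-only region, minus that of all regions of all 6 libraries (vertical axis); each symbol is 1 library and the black lines are the group means. At 2 and 10 kb the 3 chimera libraries lie above the 3 control libraries, and at 50 kb the groups overlap.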

How the data were processed

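ATAC-seq was measured in 3 control and 3 chimera libraries of H1155, with 1 deposited peak list per library. File names show narrowPeak output of MACS2. The aligner, MACS2 settings, read filters and transposase shift were not given in the sources used here. HOMER 4.9 and GRCh38 come from the submitters' processing notes, which give them no role. The authors deposited a fold and −log10 p and −log10 q values for each peak, all computed within a library. The fold was read as summit pileup plus 1 over local background plus 1. The deposited values are used to describe and rank peaks. In the neighbour contrasts they are compared between libraries relative to the same library's shared regions. Other comparisons between libraries, such as every control fold above every chimera fold, use the deposited values unscaled.

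Peaks were merged where they shared 1 bp, in Python 3.11.15 with numpy 2.4.6, pandas 2.3.3 and scipy 1.17.1; 0.0168% of peaks, on chromosome Y, were left out. In a region with several peaks of 1 library the most significant was used. Summit pileup and local background were recovered from fold and −log10 p under a Poisson model (tolerance 0.005). They stand in for depth only if the calling settings were the same in all libraries. Summit pileup at neighbouring shared regions was tested between the 2 groups of libraries by exact permutation, two-sided. That test is not independent of the choice of neighbours, since a peak call rests on pileup. The test planned for their fold is not used, since its local background can take in reads of the members. The merging was tested on simulated lists. The regions named were the 20 of highest rank by the lowest control −log10 q, all groups of at least 3 within 100 kb, and members within 100 kb of listed genes. Of these, 1 ranked region and 1 group are not reported here. The members and lists were chosen with earlier results of these data known. The hg19 extents of 211 genes, and the chromosome lengths, were written from general knowledge, those at the ranked regions and groups after the positions were seen; all 211 were on the same chromosome in the RefSeq table of GRCh38.p14, 164 had a span length within 2% or 1 kb of it, and for 170 the offset between builds at one end was within 1 kb of that of another gene of the chromosome. Nothing says that the biological replicates were made on separate days, so p-values measure the spread between these samples only. Replicate numbers did not pair the samples, with correlations of deviations of -0.0055, -0.059 and -0.015.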

Additional observations from a re-analysis of the deposited data

How the results depend on the processing

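The count of 1197 regions was 878 with peaks up to 1 kb apart merged, 1157 and 831 with −log10 q of at least 5 and 10, 1492 with a cover of at least 50%, and 1018 with lists of equal length. The lowest control −log10 q, which sets the rank, was 9.38 at rank 77 and 4.94 at rank 687. Fewer than 77 members thus reached 10 in every control, and fewer than 687 reached 5. The counts of 831 and 1157 therefore include regions outside the 1197, and do not show that the members passed these cutoffs. The shares and widths given for these cutoffs describe such changed sets. Leaving out 1 library gave 1784 to 4244, with the highest without control replicate 2; without control replicate 1 it was 2278, and without chimera replicate 1, 2 or 3 it was 1905, 2143 and 2150. All of these ask for fewer libraries and so admit more regions. With the replicate block (a control peak and no chimera peak in at least 2 of 3 numbers) it was 10184, a looser rule. The share within 10 kb of a region of all 6 libraries, 53.0%, was 44.2% with peaks up to 1 kb apart merged, 44.5% with −log10 q of at least 10 and 43.4% with the 50% cover, and 52.4% to 55.2% with 1 library left out. The share with a chimera peak within 1 kb, 30.3%, was 0% with peaks up to 1 kb apart merged, by construction, 25.2% and 14.0% with −log10 q of at least 5 and 10, 57.9% with the cover, 24.2% when all lists had the same length, and 26.8% to 32.8% with 1 library left out. The median width of 354 bp was 398.5 bp, 473 bp, 407 bp and 380 bp with the 1 kb merge, −log10 q of at least 10, the cover and equal lengths, and 305 to 358 bp with 1 library left out. The fold contrast at neighbouring shared regions, 0.062, stayed positive under the other peak sets and distances and ran from 0.046 to 0.070 with 1 library left out; with the replicate block it was also 0.062. With summit pileup in place of the fold, the contrast was -0.0025 (two-sided exact permutation p = 0.8). With local background, the denominator of the fold, it was -0.094, so a lower background went with the higher fold. Both measures were added after the data were seen, and the cause was not tested. The share over start sites and the sequence features of the regions were not run, for lack of an hg19 annotation and genome, and the neighbour contrast was not run with the cover. A region without a chimera peak can hold signal below the calling threshold, and the part of depth in these absences was not tested.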
